A study of Sus scrofa with 6 samples.

Results

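CD antigens are membrane proteins that were numbered by the antibodies raised against them, mostly on leukocytes. Many of them mark a lineage of immune cells, such as the CD3 chains on T cells, while others, such as the tetraspanins CD9 and CD81, are carried by epithelial cells as well. In the small intestine, epithelial CD antigens take part in adhesion between cells, in contact with leukocytes of the lamina propria and in the organization of membrane proteins. The genes described here were chosen by name only. They are all genes of the array whose symbol consists of CD, digits and at most 1 further letter, without CD46, CD55, CD59 and CD63, together with PECAM1, which encodes CD31. This gave 37 of 6765 named genes, measured by 58 probe sets. A gene with more than 1 probe set was represented by the brightest one on average. CD5L also carries a matching symbol, although it is known as a secreted protein of macrophages and not as a surface antigen.

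The study compared IPEC-1 cells, a non-transformed epithelial line from the small intestine of newborn piglets, in air–liquid interface culture (ALI) and in submerged culture (SMC). Cells of both types grew on a porous membrane. On the apical side, only a film of liquid was left in ALI, while the SMC cultures stood under medium. Both were kept in medium without serum at the end of culture. RNA from 3 ALI and 3 SMC cultures was hybridized to 6 porcine GeneChip arrays, with 1 culture of each type at passages P109, P111 and P113, which are replicates 1, 2 and 3 of each group. All cultures thus came from 1 cell line, so that p-values measure the spread between cultures of this line and not between animals.

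All values are log2 signals, and a difference of 1 means a doubling of the signal. The array medians lay between 6.33 and 6.38. The table holds no detection calls. Therefore, the 25% quantile of each array, 4.52 to 4.61, was taken as a limit, and a value below it was not shown to be above background. Signals of different probe sets do not compare the amounts of different genes. Differences between ALI and SMC were tested with limma over 23999 probe sets, and a gene was called where its adjusted p was under 0.05 after Benjamini-Hochberg correction. Of 12 measured markers of intestinal epithelium, 11 were above the limit on all 6 arrays, among them EPCAM (13.34 to 13.44 in ALI and 13.30 to 13.35 in SMC), and only the junction protein TJP1 was below it on all 6. Of 14 leukocyte markers, 6 were above the limit on all 6 arrays, while PTPRC, the common leukocyte antigen, was below it on all 6 (3.39 to 3.56 in ALI and 3.45 to 3.74 in SMC). Of 6 fibroblast markers, 4 were above it on all 6 arrays and DCN and LUM on none.

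The CD antigens differed in whether their signal was above the limit. On all 6 arrays, 22 of the 37 genes (59.5%) were above the limit, compared with 86.6% of all named genes, and 13 of them were also above the median of every array. These 13 were the tetraspanins CD9, CD81, CD151 and CD82, the adhesion molecules CD164, CD47, CD99, CD93, CD58, PECAM1 and CD34, the costimulatory ligand CD86 and the lectin CD69. The other 9 above the limit were CD3D, CD3E, CD8B, CD14, CD300C, CD40, CD74, CD83 and CD5L, and these were below the median of every array. Another 9 genes were below the limit on every array, namely CD1E, CD80, CD53, CD247, CD3G, CD8A, CD180, CD38 and CD79B. The remaining 6, CD2, CD4, CD27, CD163, CD200 and CD209, were above it on some arrays only. Thus the adhesion molecules were all above the limit, the B cell antigens all below it, and of 9 antigens of T and natural killer cells 3 were above it on all arrays.

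**Figure D1:**
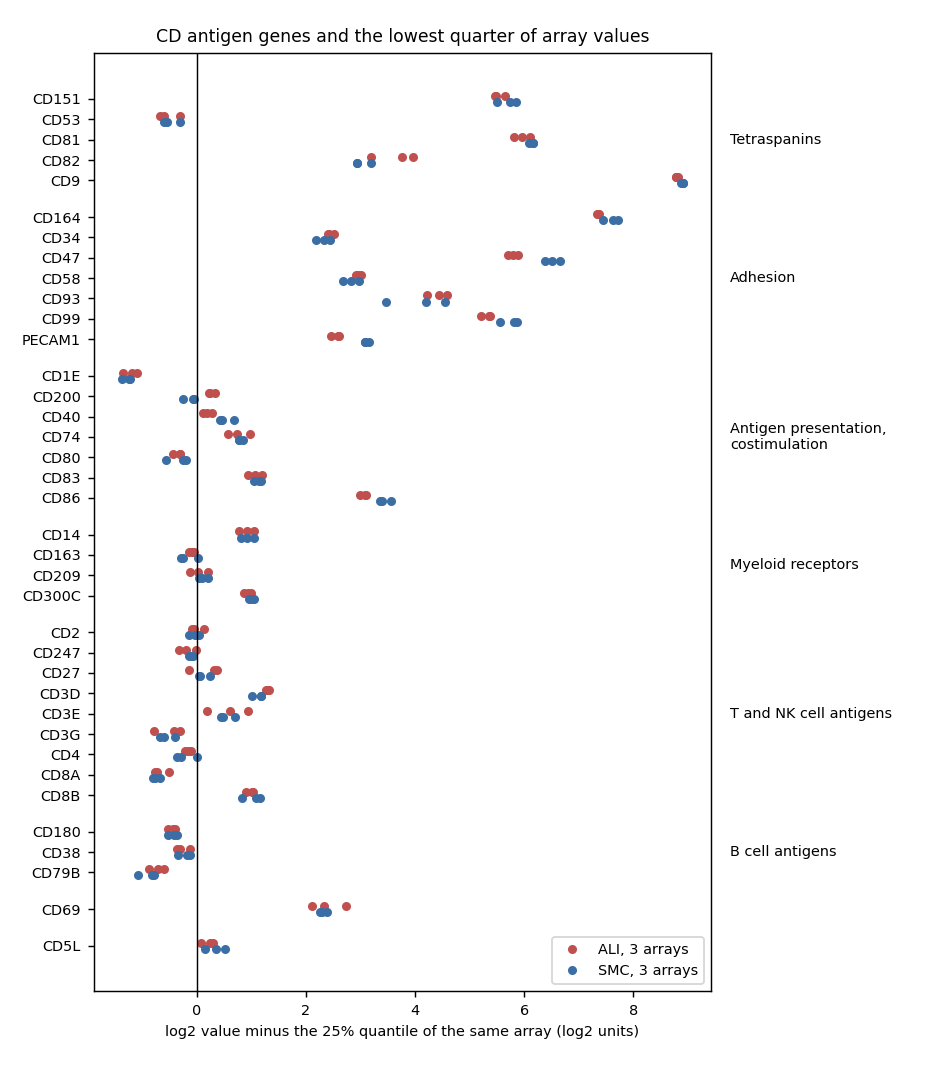
Log2 value of each CD antigen gene minus the 25% quantile of the same array (x axis, log2 units), with 3 ALI arrays (red, upper row of each gene) and 3 SMC arrays (blue, lower row). Genes right of the black line on all arrays were above the limit (22 of 37), and the distance from the line does not compare amounts between genes.

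In the comparison of ALI with SMC, 2 CD antigen genes passed the test, CD47 and PECAM1, and both were lower in ALI. Thus 2 of 37 genes (5.41%) were called, against 2.53% of all named genes. None of the 37 was higher, against 1.02% of all named genes, and 2 were lower, against 1.51%. At an unadjusted p under 0.05, limma gave 7 of the 37 (18.9%), against 16.0% of all named genes. The log2 fold changes ranged from -0.66 to 0.68 with a median of 0.04, and the median over all named genes was 0.01. The median size of the change was 0.11, against 0.13 over all named genes. In 11 of the 37 genes (29.7%) the ALI and SMC arrays did not overlap, against 21.9% of all named genes. With the passage as a block, CD82 was called as well, so that 1 of the 37 genes was higher, against 2.25% of all named genes, and 2 were lower, against 3.75%. In these bulk cultures, less RNA per cell and fewer cells carrying a given antigen cannot be told apart. The count of 2 was 0 when ALI replicates 1 or 3 or SMC replicates 1 or 2 were left out, and 1 when ALI replicate 2 (CD82) or SMC replicate 3 (CD47) was.

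**Figure D2:**
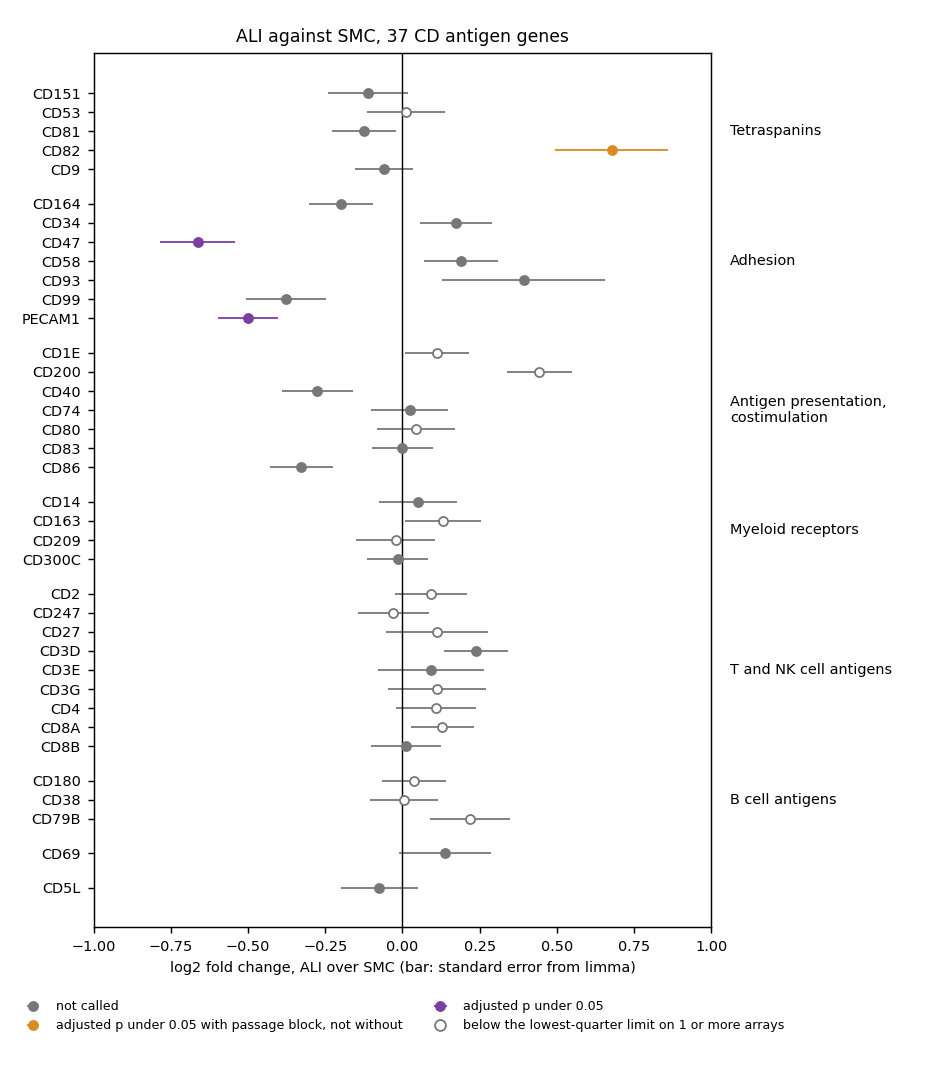
Log2 fold change of ALI over SMC (x axis) for the 37 CD antigen genes, ordered by role, with the standard error from limma as a bar. CD47 and PECAM1 (purple) passed the test, CD82 (orange) passed it with the passage as a block and not without, and open circles mark the 15 genes below the limit on 1 or more arrays.

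CD47 showed the most negative log2 fold change of the 37 genes. It encodes a widely expressed membrane protein that binds SIRPα on phagocytes, where it inhibits uptake of the cell, and that also serves as a receptor for thrombospondin-1. Its log2 values were 10.32, 10.50 and 10.33 in ALI at passages P109, P111 and P113, against 11.22, 11.03 and 10.89 in SMC. The highest ALI value lay below the lowest SMC value. CD47 was 1.58-fold lower in ALI, with 10.38 ± 0.10 in ALI and 11.04 ± 0.17 in SMC (SD, n = 3 each; limma, log2 fold change -0.66, SE 0.12, adjusted p = 0.0357). Within the passages, the difference of ALI minus SMC was -0.90, -0.53 and -0.56 log2 units. The probe set that represented the gene is of the type (suffix s_at) whose probes match more than 1 transcript. Both other probe sets, of the type specific to 1 transcript, gave -0.66 (SE 0.15, adjusted p = 0.0767) and -0.56 (SE 0.20, adjusted p = 0.239), and with the passage as a block they passed the test (adjusted p = 0.0337 and 0.0247). The call of CD47 was kept without SMC replicate 3 (adjusted p = 0.0448) and lost without any other array (0.0601 to 0.145).

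PECAM1 is an adhesion molecule at the junctions of endothelial cells and on platelets and leukocytes. Its log2 values were 7.21, 7.07 and 7.13 in ALI, against 7.65, 7.59 and 7.68 in SMC. All ALI arrays were below all SMC arrays, and the arrays within each group lay close together (SD 0.071 in ALI and 0.042 in SMC, n = 3 each). PECAM1 was 1.42-fold lower in ALI (log2 fold change -0.50, SE 0.10; limma, adjusted p = 0.0448), with differences of -0.44, -0.52 and -0.54 within passages P109, P111 and P113. Its other probe set was lower without overlap as well, at -0.37 (SE 0.10, adjusted p = 0.145). The call lay close to the threshold and was not kept when any 1 of the 6 arrays was left out (adjusted p = 0.0792 to 0.149), after quantile normalization (0.0546), with an intensity trend (0.0752) and with the mean over both probe sets (0.0666).

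As PECAM1 is a marker of endothelium and leukocytes, further markers of these cells were inspected. Of 12 endothelial markers, 7 were above the limit on all 6 arrays, PECAM1, CD34 and CD93 among them, while the endothelial cadherin CDH5, the VEGF receptor KDR and the TGF-β coreceptor ENG were below it on all 6. None of the 12 was called as higher in ALI, against 1.02% of all named genes, and PECAM1 was the only one called as lower. As the list was inspected because of PECAM1, the lower count cannot be read against the 1.51% of all named genes. The median log2 fold change of the 12 was 0.05. The summed signal of the list, on the log2 scale, was 9.97 to 10.17 in ALI and 9.75 to 10.19 in SMC. Bright probe sets weigh most in such a sum, among them that of CD93 (7.98 to 9.20 over all arrays). The summed signal of the 14 leukocyte markers was 10.87 to 11.07 in ALI and 11.41 to 11.49 in SMC, so that the groups did not overlap. AIF1, a calcium-binding protein of macrophages, was the only called gene of this list, and was lower in ALI with 10.61, 10.53 and 10.38 against 11.16, 11.18 and 11.09 in SMC (log2 fold change -0.64, SE 0.10; limma, adjusted p = 0.0248). Without AIF1, the remaining 13 markers summed to 9.08 to 9.21 in ALI and 9.06 to 9.11 in SMC. The AIF1 call was kept only without ALI replicate 3 (adjusted p = 0.0483) and was lost without any other array (0.0551 to 0.123).

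The other adhesion molecules did not pass the test. CD99, a small glycoprotein involved in the passage of leukocytes through endothelium, had 9.97, 9.99 and 9.74 in ALI, against 10.42, 10.32 and 10.08 in SMC. The groups did not overlap, and the difference was -0.45, -0.34 and -0.34 within the 3 passages (log2 fold change -0.38, SE 0.13; limma, adjusted p = 0.228). CD164, a sialomucin of endosomes and the cell surface, had 11.98, 11.94 and 11.88 in ALI, against 12.02, 12.15 and 12.24 in SMC. Its groups did not overlap either (log2 fold change -0.20, SE 0.10, adjusted p = 0.433), and its other 2 probe sets gave -0.28 and -0.21. For CD47, PECAM1, CD99 and CD164 the ALI array was below the SMC array of the same passage at all 3 passages. The same sign at all 3 passages was found in 40.5% of the 37 genes and in 44.3% of all named genes.

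The remaining adhesion molecules had positive log2 fold changes. CD93, a C-type lectin-like receptor of endothelial and myeloid cells, had 9.05, 9.20 and 8.75 in ALI, against 9.11, 8.72 and 7.98 in SMC. Its SMC arrays differed more from each other (SD 0.57) than those of any other gene of the 37, and the difference of ALI minus SMC was -0.07 at passage P109, 0.47 at P111 and 0.77 at P113 (log2 fold change 0.39, SE 0.26; limma, adjusted p = 0.559). The second probe set of CD93 did not share this pattern, with a log2 fold change of -0.06 (SE 0.12). CD58, the ligand of CD2 on antigen-presenting and epithelial cells, had 7.63, 7.56 and 7.45 in ALI, against 7.54, 7.35 and 7.19 in SMC (log2 fold change 0.19, SE 0.12, adjusted p = 0.532). CD34, a sialomucin of blood progenitors and endothelium, had 7.12, 7.01 and 6.95 in ALI, against 7.01, 6.70 and 6.85 in SMC (log2 fold change 0.17, SE 0.12, adjusted p = 0.557). In CD58 and CD34 the groups overlapped, although the ALI array was above the SMC array at each passage.

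**Figure D3:**
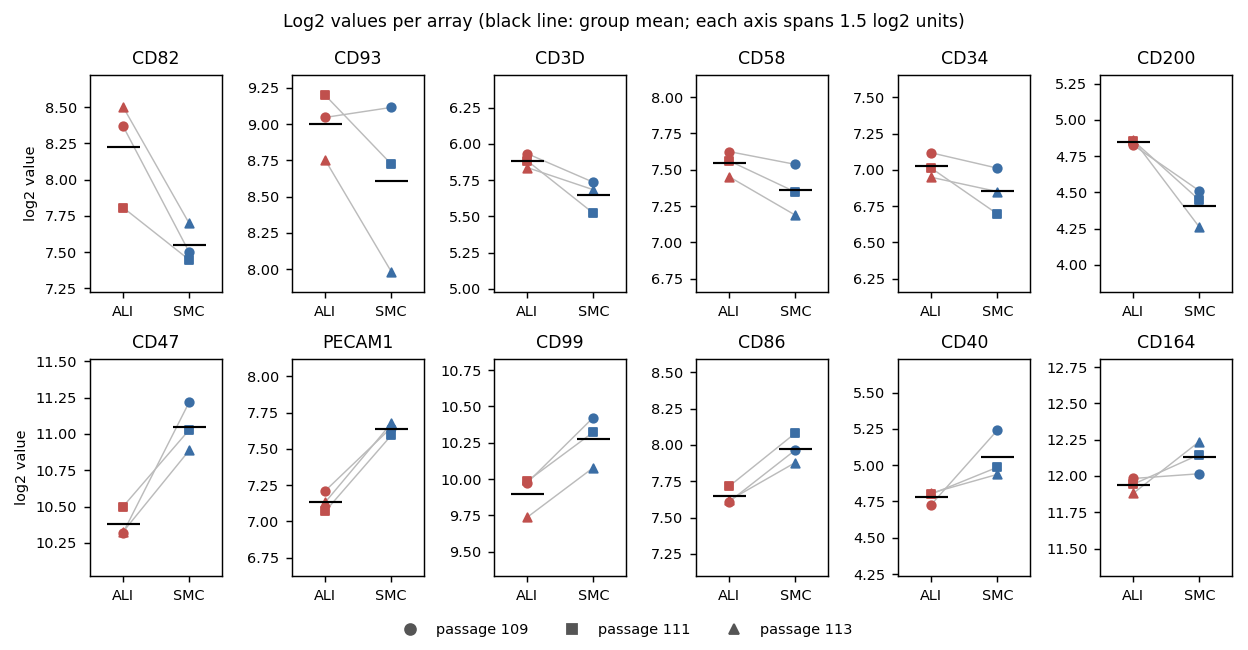
Log2 values per array of 12 CD antigen genes (y axes, each spanning 1.5 log2 units), with ALI in red on the left and SMC in blue on the right of each panel. Grey lines join arrays of the same passage and black bars are means (n = 3), so that the separate groups of CD47 and PECAM1 can be set beside the overlapping ones of CD93, CD58 and CD34.

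Tetraspanins span the membrane repeatedly and gather integrins and other membrane proteins into domains. Among the 5 measured here, CD82, known as a suppressor of metastasis, had the most positive log2 fold change of the 37 genes. Its log2 values were 8.37, 7.81 and 8.50 in ALI, against 7.50, 7.45 and 7.70 in SMC. ALI replicate 2 lay close to the highest SMC array, and the other ALI arrays were well above it. CD82 was 1.60-fold higher on average, with 8.23 ± 0.37 in ALI and 7.55 ± 0.13 in SMC (SD, n = 3 each), and did not pass the test (limma, log2 fold change 0.68, SE 0.18, adjusted p = 0.126). With the passage as a block it was called (adjusted p = 0.0229), as it was without ALI replicate 2 (log2 fold change 0.89, adjusted p = 0.0262). The second probe set of CD82 gave 0.57 (SE 0.15, adjusted p = 0.122, and 0.0258 with the block).

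The other tetraspanins above the limit on all arrays had log2 fold changes close to 0. CD9, abundant in epithelial membranes and extracellular vesicles, had 13.39, 13.38 and 13.35 in ALI, against 13.48, 13.43 and 13.40 in SMC (log2 fold change -0.06, SE 0.09; limma, adjusted p = 0.824). CD81, a tetraspanin that is widespread on many cell types, had a log2 fold change of -0.12 (SE 0.10, adjusted p = 0.645), with 10.43 to 10.63 in ALI and 10.61 to 10.72 in SMC. CD151, a partner of laminin-binding integrins, had -0.11 (SE 0.13, adjusted p = 0.752), with 9.99 to 10.25 in ALI and 10.02 to 10.37 in SMC. CD53, a tetraspanin of leukocytes, was below the limit on all arrays. Of 13 tetraspanin genes without a CD symbol, 1 was called, as lower in ALI, against 1.51% of all named genes. Their median log2 fold change was 0.04. The lower one was TSPAN13, with 11.17, 11.10 and 10.87 in ALI, against 11.72, 11.57 and 11.61 in SMC (log2 fold change -0.59, SE 0.12, adjusted p = 0.0474). This call did not hold when any 1 array was left out (adjusted p = 0.0819 to 0.153) and after quantile normalization (0.0633).

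The genes of 10 proteins that associate with tetraspanins were measured, among them integrin subunits, EPCAM and metalloproteases. None of these 10 genes passed the test in either direction (limma, median log2 fold change -0.09). With the passage as a block, 1 was higher and 1 was lower, against 2.25% and 3.75% of all named genes. The one higher was PTGFRN, also named CD315, an immunoglobulin-like partner of CD9 and CD81, with 7.15, 7.42 and 6.79 in ALI, against 6.38, 5.90 and 5.49 in SMC. Its groups did not overlap (log2 fold change 1.19, SE 0.24, adjusted p = 0.0501, and 0.00443 with the block). PTGFRN was also called with an intensity trend (adjusted p = 0.0443), with filters at a mean of 4 (0.0485) and 6 (0.0461), and without ALI replicate 3 (0.0436) or SMC replicate 1 (0.0348). Its second probe set gave 0.48, and the mean over its probe sets 0.59 (adjusted p = 0.0980). A further probe set, below the limit on all arrays, gave 0.10. The lower one was ITGA2, the collagen-binding integrin α2, at -0.85 (SE 0.34, adjusted p = 0.308, and 0.0357 with the block). The related partner IGSF8, also named CD316, had a log2 fold change of -0.01.

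For CD47, the genes of known binding partners were measured as well. SIRPA, the inhibitory receptor that CD47 binds and itself numbered CD172a, was higher in ALI, with 7.17, 7.28 and 7.45 in ALI, against 6.20, 6.19 and 6.38 in SMC. All ALI arrays were above all SMC arrays (log2 fold change 1.05, SE 0.12; limma, adjusted p = 0.00597), and the call was kept without each of the 6 arrays (adjusted p = 0.0120 to 0.0440). The second probe set of SIRPA gave only 0.20 (adjusted p = 0.613). Of the 6 measured genes of this group, SIRPA alone was called, against 2.53% of all named genes. The thrombospondin THBS1 had a log2 fold change of -0.10 (SE 0.20, adjusted p = 0.871), and THBS3 had -0.47 (SE 0.13, adjusted p = 0.143). CALR, the calreticulin that marks cells for uptake, had -0.08, and QPCTL, the enzyme that modifies CD47 for binding, had 0.16.

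A further group held genes of hyaluronan and partners of the antigen CD44. No probe set carried the symbol CD44 here, and that gene was not analysed. Of 14 measured genes of the group, 1 was higher and 4 were lower in ALI, against 1.02% and 1.51% of all named genes. The group was listed with earlier results of these data known, so that this is not an unselected count. HMMR, a hyaluronan-mediated motility receptor numbered CD168 and also a protein of the mitotic spindle, had 6.63, 6.45 and 6.59 in ALI, against 7.92, 7.81 and 7.65 in SMC (log2 fold change -1.24, SE 0.11; limma, adjusted p = 0.00324), and its call was kept without each array (0.00794 to 0.0248). SPP1, the matrix protein osteopontin, had 10.25, 10.78 and 9.84 in ALI, against 12.03, 11.89 and 11.50 in SMC (log2 fold change -1.52, SE 0.24, adjusted p = 0.0216). The hyaluronan synthase HAS3 was higher, with 7.47, 7.55 and 6.94 in ALI, against 6.49, 5.64 and 5.64 in SMC (log2 fold change 1.40, SE 0.25, adjusted p = 0.0359).

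The membrane–actin linkers moesin (MSN) and radixin (RDX), which bind the cytoplasmic tail of CD44, were both lower. The related ezrin (EZR) was also measured in this group and was not called. MSN had a log2 fold change of -0.84 (SE 0.16; limma, adjusted p = 0.0436) and RDX one of -0.83 (SE 0.12, adjusted p = 0.0169). The second probe set of MSN gave -0.46 and that of RDX -1.04. The call of SPP1 was lost without ALI replicate 1 and without SMC replicates 1 or 2 (adjusted p up to 0.116). That of RDX was lost without ALI replicates 1 or 2 and without SMC replicate 2 (up to 0.0905), and that of HAS3 without ALI replicates 1 or 2 and without SMC replicates 2 or 3 (up to 0.169). MSN lost its call without any array other than SMC replicate 3 (up to 0.198), after quantile normalization (0.0606) and with the mean over its probe sets.

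**Figure D4:**
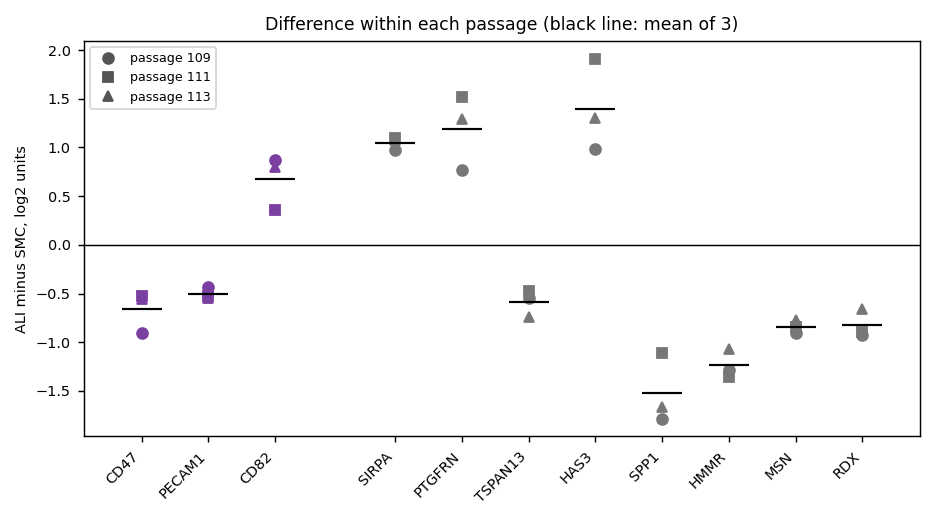
Difference of ALI minus SMC within each passage (y axis, log2 units; circle P109, square P111, triangle P113), with the mean of 3 as a black bar. The 3 CD antigen genes called without or with the passage as a block are purple, and partner genes called likewise are grey. Each gene has its 3 passages on the same side of 0, as 44.3% of all named genes do. Called genes were picked for the figure, so this agreement is no support for the calls.

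Antigen presentation and costimulation were represented by 7 genes, of which none passed the test (limma) and 4 were above the limit on all arrays. CD86, a ligand of the T cell receptors CD28 and CTLA4, had 7.61, 7.72 and 7.62 in ALI, against 7.97, 8.08 and 7.88 in SMC. The groups did not overlap, with a difference of -0.36, -0.37 and -0.26 within the passages (log2 fold change -0.33, SE 0.10, adjusted p = 0.185). CD40, a receptor of the TNF family for the T cell ligand CD40LG, had 4.73, 4.80 and 4.81 in ALI, against 5.24, 4.99 and 4.94 in SMC. These groups were separate too (log2 fold change -0.28, SE 0.11, adjusted p = 0.321), but all values were close to the limit, and the other 2 probe sets of CD40, below the limit, gave 0.10 and 0.23. CD74, the invariant chain of MHC class II, had 5.19 to 5.58 in ALI and 5.28 to 5.36 in SMC, and CD83, a marker of mature dendritic cells, had 5.55 to 5.73 in ALI and 5.62 to 5.68 in SMC. CD80, the second ligand of CD28, and CD1E, a protein of lipid antigen presentation, were below the limit on all arrays.

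CD200, a ligand that restrains myeloid cells through its receptor, was above the limit on the 3 ALI arrays and below it on the 3 SMC arrays. It was singled out after its values were seen. Its log2 values were 4.83, 4.86 and 4.86 in ALI, against 4.51, 4.45 and 4.26 in SMC, without overlap (log2 fold change 0.44, SE 0.11; limma, adjusted p = 0.0888, and 0.0601 with the block). As the SMC values are not shown to be above background, this is not an exact size.

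The myeloid receptors had log2 fold changes between -0.02 and 0.13, none of them called by limma. CD14, the coreceptor for lipopolysaccharide, had 5.66, 5.54 and 5.31 in ALI, against 5.48, 5.56 and 5.32 in SMC (log2 fold change 0.05, SE 0.13, adjusted p = 0.903). CD300C, an activating receptor of myeloid cells, had 5.46 to 5.60 in ALI and 5.47 to 5.60 in SMC. The scavenger receptor CD163, which takes up hemoglobin in macrophages, and the lectin CD209 had values on both sides of the limit. Of 11 measured genes of CD14 and TLR4 signaling, none was called. With the passage as a block 1 was higher, against 2.25% of all named genes. This was TLR4, which signals together with CD14, with 7.50, 8.19 and 7.60 in ALI, against 6.46, 6.55 and 7.35 in SMC (log2 fold change 0.98, SE 0.26, adjusted p = 0.128, and 0.0468 with the block). Its other 4 probe sets gave -0.09 to 0.57.

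Lineage antigens of lymphocytes were below the median on every array. Of 9 antigens of T and natural killer cells, 8 had a positive log2 fold change and none passed the test (limma). Of these 9, 3 were above the limit on no array and 3 on some arrays only. Among all named genes below the limit on at least 1 array, 66.6% were positive. After quantile normalization, CD8B had a negative value (-0.012). The T cell receptor chain CD3D had 5.93, 5.88 and 5.84 in ALI, against 5.74, 5.52 and 5.68 in SMC, without overlap (log2 fold change 0.24, SE 0.10, adjusted p = 0.348). CD3E had 4.80, 5.22 and 5.47 in ALI, against 5.05, 4.95 and 5.21 in SMC, and the coreceptor chain CD8B 5.51 to 5.65 in ALI and 5.38 to 5.68 in SMC. CD3G and CD8A, chains of the same receptor complexes as CD3E and CD8B, were below the limit on all arrays, as was the signaling chain CD247. The B cell antigens CD79B, CD180 and CD38 had values of 3.48 to 4.41 over all arrays. CD69, an early activation antigen of lymphocytes, was above the median of every array, with 6.73, 6.94 and 7.27 in ALI, against 6.95, 6.81 and 6.76 in SMC (log2 fold change 0.14, SE 0.15, adjusted p = 0.733).

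The sign of the log2 fold change differed between genes above and below the limit. Of the 22 genes above it on all arrays, 10 had a positive and 12 a negative value, with a median of -0.01. Of the 15 others, 13 had a positive value (86.7%), with a median of 0.11. Among all 909 named genes that were below the limit on at least 1 array, 66.6% were positive, with a median of 0.06. After quantile normalization, 9 of the 15 genes were positive and their median was 0.06. None of the 15 was called with either scaling.

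Of the 37 genes, 15 had more than 1 probe set. The probe sets agreed in sign for CD14, CD163, CD164, CD4, CD47, CD5L, CD80, CD82, CD83 and PECAM1, and differed in sign for CD247, CD300C, CD40, CD53 and CD93. In none of these 5 genes did a probe set pass the test in limma. For CD300C, the second probe set was higher in ALI without overlap (log2 fold change 0.21, SE 0.13, adjusted p = 0.507), while the one that represented the gene gave -0.02. The 22 other genes rested on 1 probe set each.

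**Figure D5:**
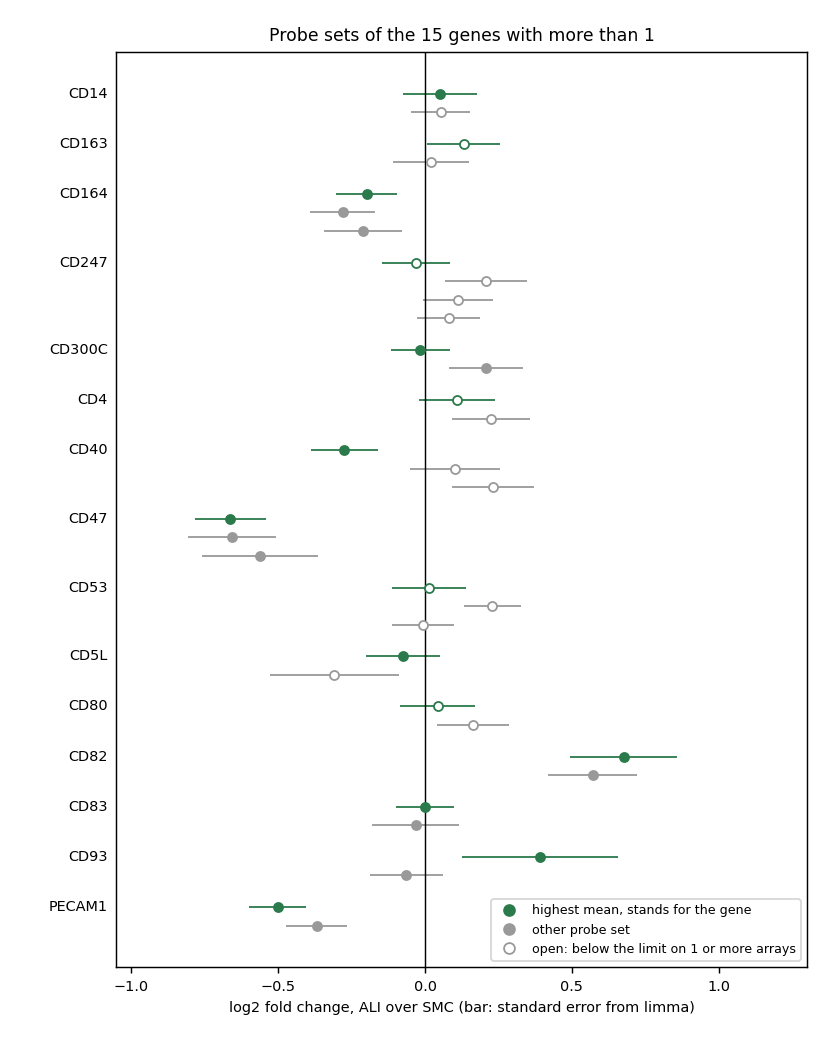
Log2 fold change of ALI over SMC (x axis, bar: standard error from limma) for all probe sets of the 15 genes with more than 1, in green the probe set with the highest mean and in grey the others. The 3 probe sets of CD47 and both of PECAM1 lie left of 0 and both of CD82 right of 0, while open circles mark probe sets below the limit on 1 or more arrays.

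Many CD numbers belong to genes with another symbol, such as integrins, cytokine receptors and enzymes. Of 98 such genes measured, 63 were above the limit on all 6 arrays, against 86.6% of all named genes, and 25 on none. In ALI, 1 was higher and 4 were lower, against 1.02% and 1.51% of all named genes, with a median log2 fold change of 0.02. The higher one was SIRPA and the lower ones HMMR, MUC1, BMPR1B and FZD4. The mucin MUC1, numbered CD227, had 8.65, 9.04 and 9.16 in ALI, against 10.12, 9.74 and 10.00 in SMC (log2 fold change -1.01, SE 0.16; limma, adjusted p = 0.0228), while its second probe set gave -0.08. BMPR1B, a receptor for bone morphogenetic proteins, was at -0.84 (SE 0.14, adjusted p = 0.0240) and FZD4, a Wnt receptor, at -0.72 (SE 0.12, adjusted p = 0.0283), and all of their other probe sets were lower as well, at -0.98 and -0.86 for BMPR1B and -0.61 for FZD4. With the passage as a block, 6 were higher and 5 lower, against 2.25% and 3.75% of all named genes. The added ones were FGFR2, VCAM1, FAS, TLR4 and PTGFRN as higher and ITGA2 as lower, although FAS was below the limit on all arrays and VCAM1 on all but 1. The call of MUC1 was lost without any array other than ALI replicate 3 (adjusted p up to 0.0788) and with the mean over its probe sets (0.166), that of FZD4 without any other than ALI replicate 3 (up to 0.138), and that of BMPR1B without ALI replicates 1 or 3 and without SMC replicates 2 or 3 (up to 0.108).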

How the data were processed

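RNA of 3 ALI and 3 SMC cultures of IPEC-1 cells was hybridized to GeneChip Porcine Genome Arrays. According to the methods, the authors normalized the arrays with GC-RMA, and GCOS 1.1.1 is named in the submitters' processing notes. The deposited table holds log2 values per probe set and array and names no normalization. These values were not scaled again. The free-text description of all 6 samples names liver, while their titles and cell line labels name IPEC-1 and their source label jejunum, and the description was not used. The 124 control probe sets were left out, and 23999 entered a limma fit (version 3.58.1, R 4.3.3) in which culture type was the sole factor, with p-values adjusted over all of them. Symbols came from the platform annotation, where 10069 probe sets had 1 symbol, 198 several and 13732 none. The limit for dim signals was the 25% quantile of each array. The script was tested on simulated data with 200 changed probe sets among 23999. It recovered 0 of them at a log2 change of 0.58 and 79.5% at a log2 change of 1. With the passage as a block, it recovered 79 of the 200 at a log2 change of 1. The simulated noise held no effect of passage, and 455 probe sets were called in the data, so these shares are not the power in these data. A gene that was not called is not shown to be unchanged.

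By the labels, 1 ALI and 1 SMC array share a passage. The passage was run as a block in a planned second fit. Deviations of the paired arrays from their group means correlated at 0.34, 0.14 and 0.45 across probe sets. Those of arrays of different passages correlated at -0.42 to 0.22. ALI replicate 2 thus correlated less with SMC replicate 2 of its passage (0.14) than with SMC replicate 1 (0.22). Deviations from a group mean sum to 0, so positive values for some pairs force negative ones for others. Alternatives were quantile normalization, an intensity trend, filters at a mean log2 value of 4 and 6, averaged probe sets, leaving out each array and the methods' t-test. Every CD antigen gene is accounted for, with values per array for called genes and for the 5 largest changes in each direction among those above the limit on all arrays. Other lists give counts and called members. The genes and lists were chosen with earlier results of these data known. No sequences were used here.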

Additional observations from a re-analysis of the deposited data

How the results depend on the processing

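The 455 probe sets called over the whole array became 1276 with the passage as a replicate block, 119 to 432 without 1 array, and 2891 at an unadjusted p of at most 0.05 or 0 after adjustment in the methods' t-test, where limma gave 3440 at an unadjusted p under 0.05. The 2 called CD antigen genes became 1 (CD47) after quantile normalization, with an intensity trend and with averaged probe sets, 0 to 1 without 1 array, and 9 unadjusted or 0 adjusted in the methods' t-test, where limma had 7 at an unadjusted p under 0.05. For the arrays, the methods specify neither the form of the t-test nor that of the adjustment. Equal variances and Benjamini-Hochberg correction were chosen here, so these t-test counts are not the study's own. With the median as the limit, 13 genes in place of 22 were above it, and 18 with the 25% quantile over probe sets with 1 symbol (5.28 to 5.35). Of 222 values of CD antigen genes with 1 array left out, 27 changed sign, and of 195 under the other alternatives 9 did, none of them in a called gene. After quantile normalization these were CD180 (-0.022), CD38 (-0.052), CD53 (-0.049), CD74 (-0.0063), CD80 (-0.014) and CD8B (-0.012), and with averaged probe sets CD247 (0.092), CD300C (0.096) and CD40 (0.019). With 1 array left out they were CD14 (-0.030 to 0.15), CD180 (-0.016 to 0.066), CD209 (-0.12 to 0.082), CD247 (-0.13 to 0.027), CD300C (-0.060 to 0.023), CD38 (-0.067 to 0.044), CD3E (-0.063 to 0.27), CD3G (-0.00094 to 0.28), CD53 (-0.073 to 0.096), CD5L (-0.18 to 0.0042), CD69 (-0.0078 to 0.27), CD74 (-0.092 to 0.10), CD80 (-0.077 to 0.11), CD83 (-0.038 to 0.050) and CD8B (-0.074 to 0.076), as the range of the log2 fold change over the 6 fits. The block changed no other call among the CD antigen genes than that of CD82. The number of arrays, and signals below the limit on at least 1 array for 15 of the 37 genes, limit the precision.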

Other observations

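The other gene groups connected to CD antigens held few called genes. Of all named genes, 2.53% were called, and with the passage as a block 2.25% were higher and 3.75% lower. Of 4 measured genes of CD40 signaling, none was called without or with the passage as a block. Of 11 genes of lipid uptake by CD36 and other scavenger receptors, none was called in limma, and with the block 1 was lower, the fatty acid-binding protein FABP3 (log2 fold change -1.07, adjusted p = 0.162, and 0.0380 with the block). FABP1 and FABP2, the fatty acid-binding proteins of enterocytes, were below the limit on all arrays. Of 14 genes of antigen presentation by CD1 and MHC class II, none was called, and with the block 1 was lower, MIF, the cytokine ligand of CD74 (log2 fold change -0.50, adjusted p = 0.0629, 0.0391 with the block and 0.0186 with an intensity trend). Its values were 12.59, 12.61 and 12.73 in ALI, against 13.26, 13.03 and 13.14 in SMC. Of 7 genes of cobalamin uptake, none was called in either fit. None of the epithelial or fibroblast markers was called in either fit. The paper lists COL3A1, which is among these fibroblast markers, as strongly higher in ALI. A marker without a call is not shown to be unchanged.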
